A study of Mus musculus with 10 samples.

Results

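Intronic polyadenylation was compared between 2 mouse mammary tumour cell lines, 4T07 and 67NR, at the 214 sites in 200 genes that the authors' deposited tables list for this pair. These are all rows of the tables with higher and with lower usage for 67NR against 4T07. The series as a whole lists 2311 such rows, which are 2075 distinct sites, over 4 pairs of lines and 1 antisense treatment. Each library was made by 3'-end sequencing, which reads the ends of polyadenylated RNA. A listed site carries reads ending in an intron by the authors' assignment, which was not checked against a gene annotation. Each site was set beside the reads ending in the last exon of the same gene. Usage is the percentage that the site takes of the reads of both. The direction of each difference was taken from these percentages and is always given as 4T07 against 67NR.

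67NR is labelled as non-invasive and 4T07 as invasive, and the series' design text calls them non-metastatic and metastatic. Both are established lines that were grown in the same serum-containing medium, and neither was given any agent. Each line is represented by 2 libraries, and the labels do not say whether these came from separate cultures. The p-values below therefore measure the spread between libraries only, and that spread may be technical. Each group is also a single cell line, so what separates 4T07 from 67NR in general and what goes with invasiveness cannot be told apart. The pair was chosen by the study to ask which intronic ends differ with the capacity of tumour cells to spread. Of the markers looked up for the cells, Spint2 (epithelial) and Twist2 (mesenchymal) have a listed site; no marker of another cell type does, so the others were not measured here.

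Most introns are removed whole, but some hold a cleavage and polyadenylation signal that is used before the splicing machinery has joined the flanking exons. The transcript then ends early, and it can encode a shortened protein or no stable protein. The U1 small nuclear RNA, known for marking the start of introns, also protects transcripts from such early ends. A share of reads at an intronic site can fall because fewer transcripts end there, because more transcripts end in the last exon, or through both, and the same holds in reverse for a rise.

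Usage was lower in 4T07 at 176 sites in 164 genes and higher at 38 sites in 36 genes. At the sites with lower usage, the median was 11.96% in 67NR and 0.977% in 4T07, with a median difference of -10.3 percentage points. At the sites with higher usage, the medians were 0.840% and 10.6%, with a median difference of 9.05 points. The difference passed 50 points at 18 of the lower and 3 of the higher sites and stayed under 2 points at 23 and 8. In all 214 rows both libraries of one line lay above both libraries of the other. The list was chosen by the authors for a difference in usage, so these counts describe it and test nothing. In the same sense, edgeR's quasi-likelihood test of the site relative to the last exon called 176 of 214 rows lower (82.2%) and 38 higher (17.8%). The largest adjusted p in the authors' deposited tables was 0.096 (Mast4, from 3.61% to 0.617%), and what lies past that threshold is not listed.

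**Figure D1:**
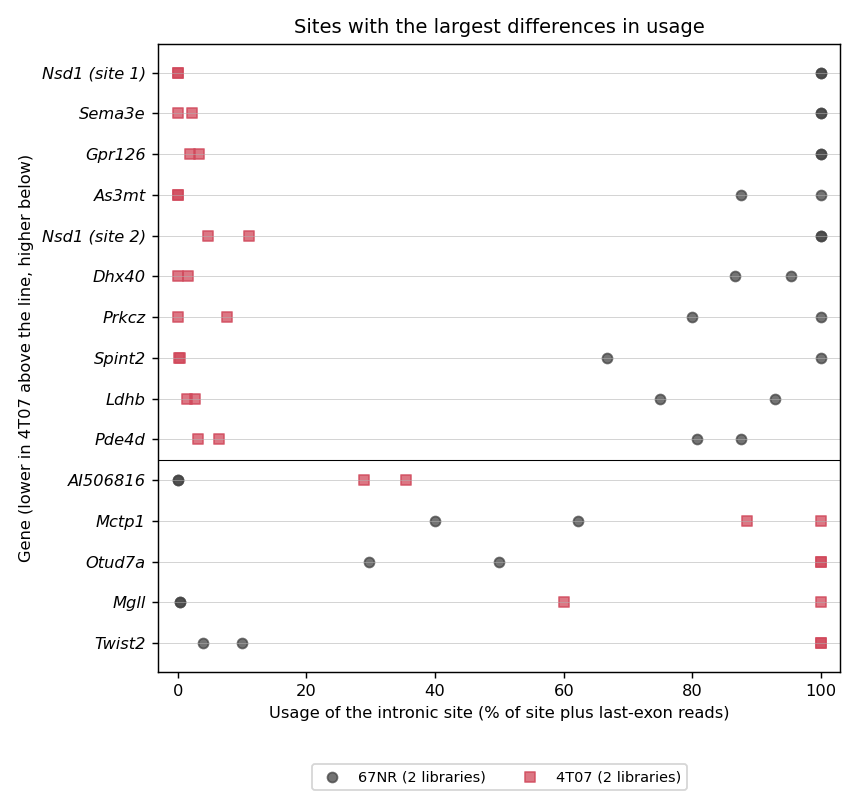
Usage of the intronic site, as a percentage of site and last-exon reads, in each of the 2 libraries of 67NR (grey circles) and 4T07 (red squares). The 10 sites with the largest falls lie above the line and the 5 with the largest rises below it, and the circles and squares of a site do not overlap.

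The reads behind these percentages separate both ways in which usage can move. The reads of the site alone were lower in 4T07 at 157 of 213 sites tested (73.7%) and higher at 27 (12.7%). For comparison, over 8171 merged peaks that all 4 libraries' own peak lists hold, on the chromosomes that are complete in all of them, 12.3% were lower in 4T07 and 14.3% higher. Of the 23 sites of lower usage among those peaks, 16 were lower (69.6%) in the same test. The sites were listed for a difference in usage in these same libraries, so setting their shares beside those of all peaks tests nothing. A peak that a list lacks need not have 0 reads, so peaks missing from a list were not tested. The reads of the last exon were lower in 4T07 for 39 of 200 last exons (19.5%) and higher for 81 (40.5%). Under a second scaling of the libraries (TMM over the listed rows) these became 30 lower and 105 higher, which moves the share of higher calls among all calls from 67.5% to 77.8%. That scaling shifts every log2 ratio of 4T07 over 67NR by 0.19, and the call of a small last-exon change depends on it.

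The 176 sites of lower usage fell into 5 classes by which feature passed the test. The site alone passed at 69 of them (39.2%), and at 71 (40.3%) the site and the last exon both passed, in opposite directions. The last exon alone passed at 17, both passed in the same direction at 17, and neither passed at 2. At 156 of the 176 the site's own reads were lower in 4T07. The sites of higher usage were split more evenly, with the site alone at 12, the last exon alone at 11, both in opposite directions at 12 and both in the same direction at 3. Over the 38, the site's own reads were higher at 26. The share of the log2 change in the site to last-exon ratio that is carried by the site had a median of 0.823 at the lower and 0.632 at the higher sites, where 1 means that the last exon did not move. The class of a single site depends on the processing and on single libraries. A second test, DESeq2, kept 152 (71.0%) of the 214 sites in the same class, and TMM over the listed rows kept 172 (80.4%). Direction cannot be set beside this, since the libraries of the lines do not overlap in any row and leaving out a library cannot reverse it.

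**Figure D2:**
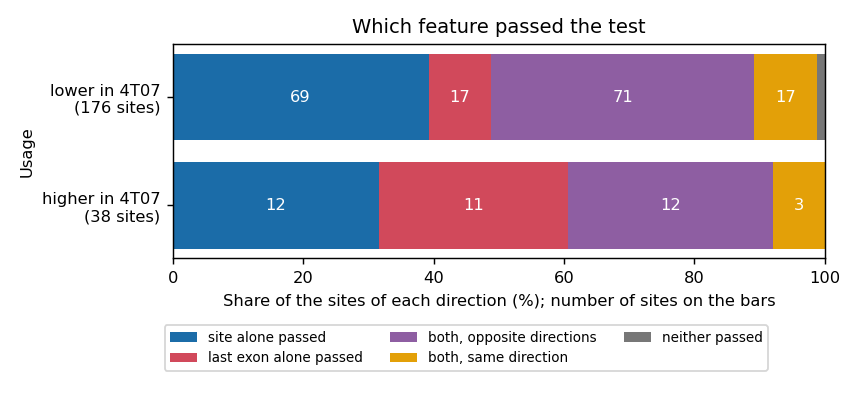
Share of sites in each class, for the 176 sites with lower and the 38 with higher usage in 4T07, with the number of sites on the bars. The last exon alone passed the test at 17 of 176 lower and 11 of 38 higher sites.

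**Figure D3:**
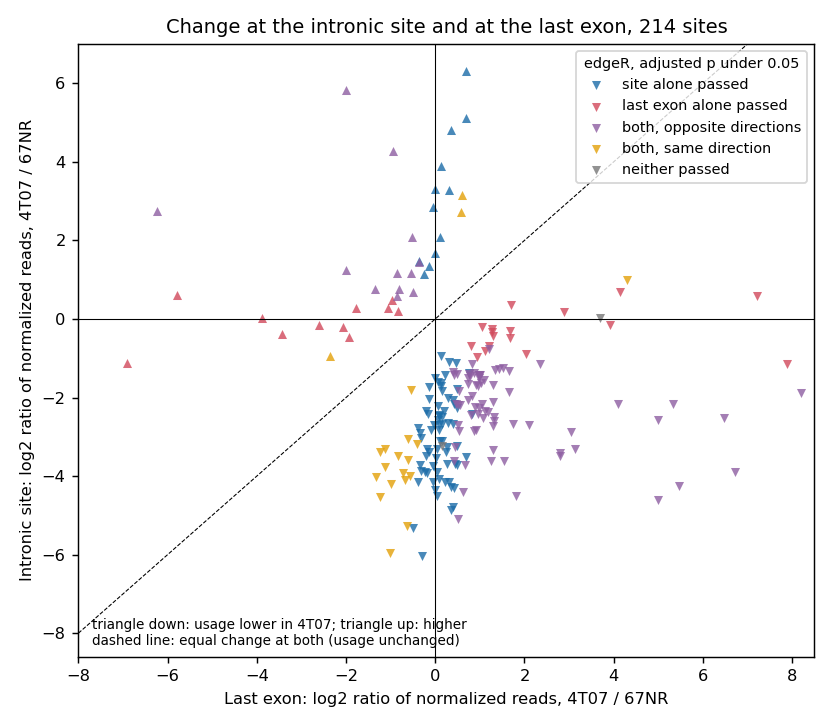
Log2 ratio of normalized reads (4T07 over 67NR, with 0.5 reads added) at the last exon (horizontal) and at the intronic site (vertical) for all 214 sites, coloured by class. Sites below the dashed line lost usage in 4T07; most lie below the horizontal axis, where the site itself has fewer reads, and the blue points are those whose last exon did not pass the test.

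At the 69 sites of lower usage where the site alone passed, the median log2 ratio was -2.92 at the site and 0.09 at the last exon. The last exon of a gene of this class can still differ without passing: that of Ifnar2, an interferon receptor subunit named after its values were seen, had a log2 ratio of 0.81. The clearest case by read number is Rock2, a kinase that acts on actomyosin contraction, at mm9 chr12:16929810-16929888 (+). The site had 613 and 662 reads in the 67NR libraries and 28 and 48 in 4T07, a log2 fold change of -3.88 ± 0.25 (SE; adjusted p = 2.07e-41). Its last exon had 65 and 204 reads in 67NR and 99 and 98 in 4T07, and its log2 fold change of -0.24 ± 0.43 did not pass (adjusted p = 0.651). Usage was 90.4% and 76.4% in 67NR against 22.0% and 32.9% in 4T07. The lines are far apart at the site, whereas the last-exon reads of 4T07 lie between those of the 67NR libraries, which themselves differ widely.

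Tpx2, a spindle assembly factor, had 44 and 28 site reads in 67NR and 2 and 0 in 4T07 (chr2:152689377-152689838, +). That is 31.4-fold fewer in 4T07, with a 95% interval from counting error of 8.37 to 264 (adjusted p = 1.11e-12). The last exon of Tpx2 had 496 and 546 reads in 67NR and 421 and 484 in 4T07, a log2 fold change of -0.01 ± 0.12. Usage accordingly went from 8.15% and 4.88% to 0.473% and 0. A similar contrast holds for Dip2b (chr15:99874895-99875093, +), whose site had 70 and 69 reads in 67NR and 0 and 1 in 4T07. Its last exon had 107 and 92 reads against 66 and 77, a log2 fold change of -0.29 ± 0.18 that did not pass (adjusted p = 0.197). Dip2b usage was 39.5% and 42.9% in 67NR against 0 and 1.28% in 4T07.

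Among genes of DNA repair, Polh and Exd2 were in this class. Polh, the DNA polymerase eta that copies past damaged bases, had 29 and 33 site reads in 67NR and 2 and 0 in 4T07. Usage of the Polh site was 50.0% and 60.0% against 7.69% and 0. Exd2, an exonuclease, holds a pair of listed sites, and at both the site's reads fell while its last exon did not pass. The first (chr12:81571854-81572056, +) had 24 and 20 reads in 67NR and 1 and 0 in 4T07, and the second 18 and 12 against 0 and 0. With 96 site and last-exon reads in 4T07, a count of 0 at the second Exd2 site allows a usage of up to 3.12%, and its reads were at least 8.74-fold higher in 67NR. Reads without molecular identifiers are not independent molecules, so such limits and intervals cover counting error only.

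Genes of adhesion, the actin cytoskeleton and motility were represented by 5 sites, in Add1, Hip1, Ptk2, Rock2 and Tpm1. All 5 had lower usage, beside 82.2% of all listed sites, with a median difference of -3.31 points against -6.23 over all. The site's reads fell at all 5, beside 73.7% of all sites. Tpm1, a tropomyosin that winds along actin filaments, had 64 and 70 site reads in 67NR and 19 and 22 in 4T07. The log2 fold change was -1.51 ± 0.32 (adjusted p = 5.73e-06) while that of its last exon was 0.00 ± 0.16. Ptk2, the focal adhesion kinase, rested on few reads, 15 and 5 in 67NR against 2 and 0, and its call was lost without replicate 2 of 4T07 (adjusted p = 0.103). Hip1, an endocytic adaptor, differs from the others in that its last exon rose, from 70 and 75 to 303 and 346 reads, a log2 fold change of 2.35 ± 0.15 (adjusted p = 1.11e-05). The Hip1 site itself, with 12 and 12 against 4 and 5 reads, passed narrowly (adjusted p = 0.0428) and lost its call under each omission of a library, with adjusted p from 0.0780 to 0.124.

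The cell cycle and spindle list held 6 sites, in Ccnb1, Ccnd3, Cep170b, Cep95, E2f1 and Tpx2, all with lower usage (82.2% over all listed sites) and with a median difference of -5.17 points against -6.23 over all. The site's reads fell at 4 (73.7% of all sites) and the last exon's reads rose at 3 (40.5% of all last exons), so these counts lie near those of the whole table. Ccnb1, the mitotic cyclin B1, had 33 and 30 site reads in 67NR and 2 and 8 in 4T07, a log2 fold change of -2.44 ± 0.46 (adjusted p = 6.7e-07). Its last exon, at 637 and 539 against 435 and 492 reads, did not pass (adjusted p = 0.389). Both ends changed in E2f1, which encodes a transcription factor of DNA replication genes. Its site had 17 and 10 reads in 67NR and 1 and 3 in 4T07 while its last exon had 545 and 575 against 932 and 1307 (log2 fold changes of -2.50 ± 0.67 and 1.18 ± 0.14). Ccnd3, the D-type cyclin, changed at the last exon alone, from 346 and 311 to 650 and 747 reads (1.28 ± 0.13), with 21 and 20 against 15 and 15 reads at the site. Thus within 1 list the same fall in usage came with 3 different patterns of reads.

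**Figure D4:**
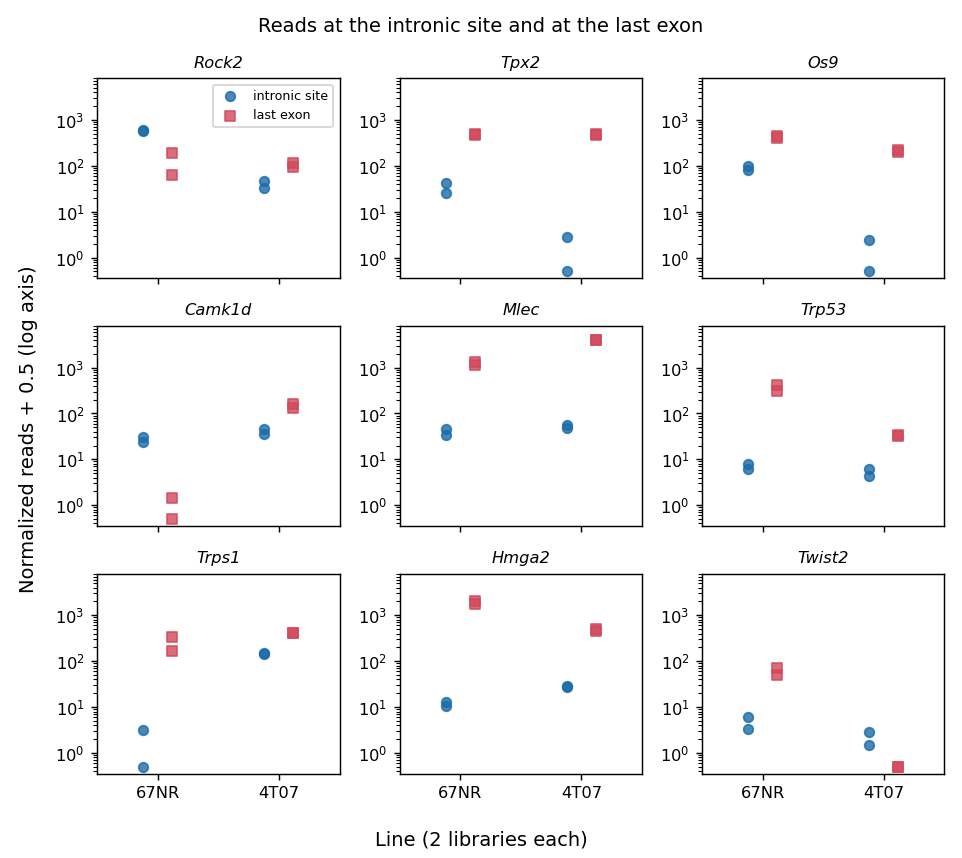
Normalized reads plus 0.5, on a log axis, at the intronic site (blue circles) and the last exon (red squares) in each library of 67NR and 4T07 for 9 genes. The site alone differs in Rock2 and Tpx2, the site more than the last exon in Os9, and the last exon in Camk1d, Mlec, Trp53 and Twist2; in Hmga2 both differ in opposite directions. The Trps1 panel shows the site with more reads.

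In the largest class, the site lost reads and the last exon gained them. Sec23b, a coat subunit of vesicles that leave the endoplasmic reticulum, changed mostly at the site (chr2:144386551-144386837, +). It had 167 and 144 site reads in 67NR and 5 and 7 in 4T07, a log2 fold change of -4.48 ± 0.36 (adjusted p = 4.66e-29). The last exon of Sec23b went from 261 and 244 to 322 and 358 reads, a log2 fold change of 0.62 ± 0.13 (adjusted p = 0.00421) that was lost without replicate 1 of 4T07 (adjusted p = 0.102). Usage was 39.0% and 37.1% in 67NR against 1.53% and 1.92% in 4T07. Here the fall of the site was by far the greater of the 2 changes.

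Dhx40, a helicase of the DEAH family, differed between the lines in which end held most of its reads (chr11:86601032-86601262, -). Its site had 39 and 41 reads in 67NR and 0 and 3 in 4T07, and its last exon 6 and 2 reads against 161 and 194. The last-exon change was 5.61 ± 0.31 on the log2 scale (adjusted p = 9.21e-06), and the site was 23.2-fold lower in 4T07 (95% interval from counting error 7.67 to 115, adjusted p = 5.53e-13). Usage of the Dhx40 site was 86.7% and 95.3% in 67NR and 0 and 1.52% in 4T07, so the end that was rare in one line was the common one in the other. The site's part of the change was 0.438.

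In several other genes of this class, of which 4 are described here, usage of over 65% in both 67NR libraries came with hardly any last-exon reads there. Spint2, an inhibitor of cell-surface serine proteases found in epithelial cells, had 5 and 0 last-exon reads in 67NR and 730 and 849 in 4T07 (log2 fold change 8.42 ± 0.38, adjusted p = 6.6e-06). The Spint2 site had 10 and 10 reads against 2 and 2, so only 0.188 of the change in ratio was carried by the site. Ldhb, a lactate dehydrogenase subunit, had 2 and 1 last-exon reads in 67NR and 69 and 74 in 4T07. In As3mt, an arsenic methyltransferase, they were 1 and 0 against 92 and 99, and in Sema3e, a secreted semaphorin, 0 and 0 against 40 and 43. At these genes the percentage in 67NR rests on few reads: the 100% usage of the Sema3e site comes from 6 and 5 reads, and no last-exon read among 11 allows a last-exon share of up to 27.3%. DESeq2 did not call the fall at the site of Spint2, Ldhb or Sema3e. The last-exon reads of Sema3e were at least 31.7-fold higher in 4T07, while its site call was lost without replicate 1 of 4T07 (adjusted p = 0.0582).

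Genes with more than 1 listed site moved in the same direction at each. Ahnak, a giant scaffold protein of the cell cortex, held the most, with 5 sites on chromosome 19, each lower in 4T07, with differences from -7.99 to -42.8 points. The last of them in transcript order (chr19:9089616-9093770, +) is the longest listed region, at 4155 bases, and had 1719 and 2161 reads in 67NR and 551 and 728 in 4T07. Its log2 fold change was -1.42 ± 0.21 (adjusted p = 2.19e-10, and 0.0561 without replicate 1 of 4T07). The last exon assigned to Ahnak had 44 and 38 reads in 67NR and 76 and 64 in 4T07, a rise of 0.97 ± 0.24 that was lost without replicate 1 of 4T07 and without either library of 67NR (adjusted p between 0.0639 and 0.112). DESeq2 did not call this last-exon rise either. Usage of the last Ahnak site stayed high in both lines, at 97.5% and 98.3% against 87.9% and 91.9%. The 5 sites share these last-exon reads, so they are not separate observations of it.

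Pde4d, a cAMP phosphodiesterase, had 25 and 21 reads at its more used site in 67NR and 1 and 2 in 4T07, and its last exon rose from 6 and 3 to 31 and 29 reads. Nsd1, a histone methyltransferase, had 13 and 12 reads at its first site in 67NR and none in 4T07, with last-exon reads of 0 and 0 against 20 and 8. The 100% usage of the Nsd1 sites in 67NR thus has no last-exon read behind it, and the last-exon change was lost without either 67NR library (adjusted p = 0.0797 and 0.0912). Reads at the last exon of Nsd1 were at least 11.1-fold higher in 4T07.

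Tia1, an RNA-binding protein known to help recruit U1 to introns, was the only listed gene among the particle's proteins and associated factors. Its site had 17 and 21 reads in 67NR and 6 and 7 in 4T07 (log2 fold change -1.34 ± 0.48, adjusted p = 0.00649, and 0.0847 without replicate 2 of 67NR). Its last exon had 101 and 180 against 255 and 369 reads (1.33 ± 0.24, adjusted p = 0.00181). Usage of the Tia1 site was 14.4% and 10.4% in 67NR and 2.30% and 1.86% in 4T07. DESeq2 did not call the fall of the Tia1 site reads. None of the cleavage and polyadenylation factors that were looked up had a listed site.

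At 17 sites of lower usage both ends lost or both gained reads. Os9, a lectin that sorts misfolded proteins for degradation, had 105 and 90 site reads in 67NR and 0 and 2 in 4T07 (chr10:126552157-126552396, -). Its last exon also fell, from 474 and 433 to 186 and 206 reads (-1.02 ± 0.14, adjusted p = 0.000403), but the site fell 84.9-fold (95% interval from counting error 23.2 to 706). Spop, a substrate adaptor of a ubiquitin ligase, went from 44 and 36 to 0 and 1 site reads. The last exon of Spop, at 787 and 1138 against 485 and 603 reads, fell by 0.63 ± 0.18 on the log2 scale, and this call was lost without either 4T07 library (adjusted p = 0.184 and 0.140). Sparc, a secreted matrix protein, shows the low end of the scale, with 5 and 14 site reads beside 17022 and 15108 last-exon reads in 67NR and none beside 14018 in 4T07. LOC100503676 was the exception in direction, with more reads at both ends in 4T07: 7 and 11 against 17 and 15 at the site and 2 and 2 against 45 and 40 at the last exon. The site call of LOC100503676 was narrow (adjusted p = 0.0323) and lost in 3 of 4 omissions of a library.

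At the 17 sites of lower usage where the last exon alone passed, the fall in percentage came with more full-length ends and with site reads that did not pass. Camk1d, a calcium and calmodulin dependent kinase, had 32 and 25 site reads in 67NR and 39 and 36 in 4T07, a log2 fold change of 0.59 ± 0.32 (adjusted p = 0.0787). Its last exon had 1 and 0 reads against 135 and 132, which took usage from 97.0% and 100% to 22.4% and 21.4%. Mlec, a lectin of the endoplasmic reticulum, had the most last-exon reads of this class, with 48 and 37 site reads in 67NR and 47 and 48 in 4T07. The last exon of Mlec rose from 1364 and 1236 to 3421 and 4026 reads (1.71 ± 0.16, adjusted p = 6.89e-05). In Camk1d and Mlec the site reads of both lines lie close together and the last-exon reads are far apart.

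Gpr126, an adhesion G protein-coupled receptor, had 0 and 0 last-exon reads in 67NR and 118 and 101 in 4T07, at least 84.4-fold higher. Its site had 9 and 8 reads against 4 and 2 and did not pass (adjusted p = 0.0554), so its usage of 100% in 67NR comes from 17 reads. Tmem79 went from 13 and 7 to 131 and 148 last-exon reads with 10 and 5 against 5 and 7 at the site, and Pxmp4, a peroxisomal membrane protein, from 11 and 10 to 67 and 75 with 29 and 20 against 27 and 21. Plcb3, a phospholipase C, had 320 and 337 last-exon reads in 67NR and 1133 and 1201 in 4T07 (2.02 ± 0.14), and 16 and 17 against 8 and 7 site reads (adjusted p = 0.0549). In bulk libraries such as these, a change in last-exon reads can be a change in the number of transcripts of the gene, and fewer cells that express it cannot be told apart from less RNA per cell.

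Neither end passed on its own at Ece2 and Pigq. Ece2 had 85 and 91 site reads in 67NR and 73 and 85 in 4T07, beside 0 and 0 against 6 and 5 at the last exon. Pigq had 3 and 6 site reads against 0 and 0, too few for the test of the site.

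Turning to the 38 sites of higher usage, the site with the most certain gain of its own lies in Trps1, a GATA-type transcriptional repressor (chr15:50554556-50556845, -). It had 0 and 3 reads in 67NR and 132 and 145 in 4T07, 106-fold more, with a 95% interval from counting error of 35.9 to 517 (adjusted p = 2.37e-38). A second Trps1 site had 0 and 0 against 18 and 13 reads, at least 12.03-fold higher in 4T07. The last exon of Trps1, with 179 and 361 reads in 67NR and 345 and 413 in 4T07, did not pass (0.68 ± 0.27, adjusted p = 0.0574). Usage of the stronger site was 0 and 0.824% in 67NR against 27.7% and 26.0% in 4T07. The libraries of the lines are thus far apart at both sites, and the last-exon reads of 4T07 include a value below the higher 67NR library.

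The list of mesenchymal transcription and chromatin regulators had 4 sites, in Hmga2, Trps1 and Twist2, all with higher usage and with a median difference of 15.6 points against -6.23 over all listed sites, of which 17.8% were higher. The site's reads rose at 3 (12.7% of all sites), and the last exon's reads fell at 2 (19.5% of all last exons). A pair of these sites lies in Trps1 and shares its last exon. The members of all lists were chosen with earlier results of these data known, so this contrast describes the list and tests nothing. Hmga2, an architectural chromatin protein of embryonic and tumour cells, had 13 and 11 site reads in 67NR and 24 and 27 in 4T07 (1.27 ± 0.39, adjusted p = 0.00204). Its last exon fell from 1867 and 2266 to 395 and 505 reads (-2.01 ± 0.15, adjusted p = 2.18e-05), so that 0.381 of the change was carried by the site. Twist2, a basic helix-loop-helix factor of mesenchyme, had the largest rise of usage in points, 93.1, but on 3 and 6 site reads in 67NR and 2 and 1 in 4T07. What moved at Twist2 was the last exon, from 74 and 54 reads to 0 and 0, at least 37.3-fold lower in 4T07. Spint2 and Twist2, the markers with a listed site, therefore differed at the last exon in opposite directions, and the part of this difference in the other results was not tested.

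AI506816, a gene without a known protein, changed at both ends. Its site had 0 and 0 reads in 67NR and 20 and 33 in 4T07 (at least 19.9-fold higher, adjusted p = 9.9e-14), and its last exon 194 and 305 against 49 and 60 (-2.00 ± 0.23, adjusted p = 0.000193). Snrnp35, a protein of the minor spliceosome, went from 0 and 1 to 14 and 20 site reads while its last exon fell from 269 and 258 to 122 and 117 (-0.94 ± 0.16). Ddah1, an enzyme that breaks down methylated arginines, had many reads at both ends: 125 and 105 against 148 and 196 at the site and 540 and 505 against 170 and 188 at the last exon. Its site rise of 0.76 ± 0.22 (adjusted p = 0.00115) was lost without replicate 2 of 4T07 (adjusted p = 0.0535). In Mgll, a lipase of monoacylglycerols, 327 and 318 last-exon reads in 67NR stood against 6 and 0 in 4T07, beside 1 and 1 against 9 and 8 at the site. Both ends differ between the lines without overlap in each of these 4 genes.

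Stag1, a cohesin subunit, and Auh, a mitochondrial hydratase that also binds RNA, gained reads at the site alone. The Stag1 site had 62 and 67 reads in 67NR and 151 and 167 in 4T07 (1.49 ± 0.24, adjusted p = 7.07e-09), with 95 and 203 against 90 and 112 at the last exon. The more used of the Auh sites had 12 and 19 reads in 67NR and 42 and 47 in 4T07 (1.70 ± 0.35, adjusted p = 4.42e-06), with a last-exon change of -0.01 ± 0.17.

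The 11 higher sites where the last exon alone passed include Trp53, Vmp1, Otud7a and Lmna. Trp53, which encodes the tumour suppressor p53, had 435 and 340 last-exon reads in 67NR and 28 and 34 in 4T07 (-3.45 ± 0.21, adjusted p = 1.11e-05). Its site had 6 and 8 against 5 and 4 reads, so usage of 1.36% and 2.30% against 15.2% and 10.5% arose with nearly the same few site reads. Vmp1, a membrane protein needed for autophagy, had 871 and 671 site reads in 67NR and 722 and 919 in 4T07, overlapping between the lines, and 1007 and 1007 against 395 and 457 last-exon reads (-1.05 ± 0.13, adjusted p = 0.000203). In Otud7a, a deubiquitinating enzyme, last-exon reads were 33 and 25 against 0 and 0, at least 16.9-fold lower in 4T07. Lmna, the nuclear lamin, had the most last-exon reads of these 11, with 11502 and 9104 against 4603 and 5585 (-0.83 ± 0.21, adjusted p = 0.00871). This call was lost without either 4T07 library (adjusted p = 0.166 and 0.146).

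Both ends passed in the same direction at Gusb, Rab22a and Map6. Map6, a protein that stabilises microtubules, had the only site of higher usage whose own reads passed the test as lower. The site went from 52 and 53 to 19 and 29 reads. The last exon of Map6 fell more, from 544 and 460 to 79 and 93 reads. The site of Rab22a, a small GTPase of endosomes, went from 3 and 1 to 12 and 17 reads, and that of Gusb, a lysosomal glucuronidase, from 0 and 1 to 7 and 8, with smaller rises of their last exons.

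The remaining groups of genes were read as counts. The ubiquitin ligase, conjugating and deubiquitinating enzymes had 11 listed sites, 9 lower and 2 higher in usage, with the site's reads down at 9 and the last exon's up at 6. Chromatin remodellers and histone regulators had 9 sites, 7 lower and 2 higher, and metabolic enzymes 9 sites, also 7 lower and 2 higher. Solute carriers (Slc25a13, Slc30a6, Slc30a9 and Slc35d2) were lower at 4 of 4, with the site's reads down at all 4 and the last exon's up at 1. Over all 214 sites 176 were lower, so a list that is mostly lower is what the table as a whole shows. The site's reads were lower at 73.7% of all sites tested, and the last exon's were higher for 40.5% of all last exons.

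The sites were then looked up in the other lines. Of the 21 sites that are also listed for 4T1 against 168FARN, a pair that shares no library with this one, 11 were lower in both, 4 higher in both and 6 opposite. These 21 are 9.81% of the sites here and 24.7% of the 85 listed there. Spint2 usage was 0.259% ± 0.0726 (SD, n = 2) in 4T1 and 100% in 168FARN, with 963 and 965 against 0 and 0 last-exon reads. Dhx40 usage was 2.83% ± 4.00 against 96.5% ± 0.686, and Camk1d usage 42.5% ± 21.7 against 100%. At Trps1 the stronger site had 8 and 43 reads in 4T1 and none in 168FARN, and Twist2 again had 2 and 0 last-exon reads in the invasive line and 309 and 293 in the other.

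**Figure D5:**
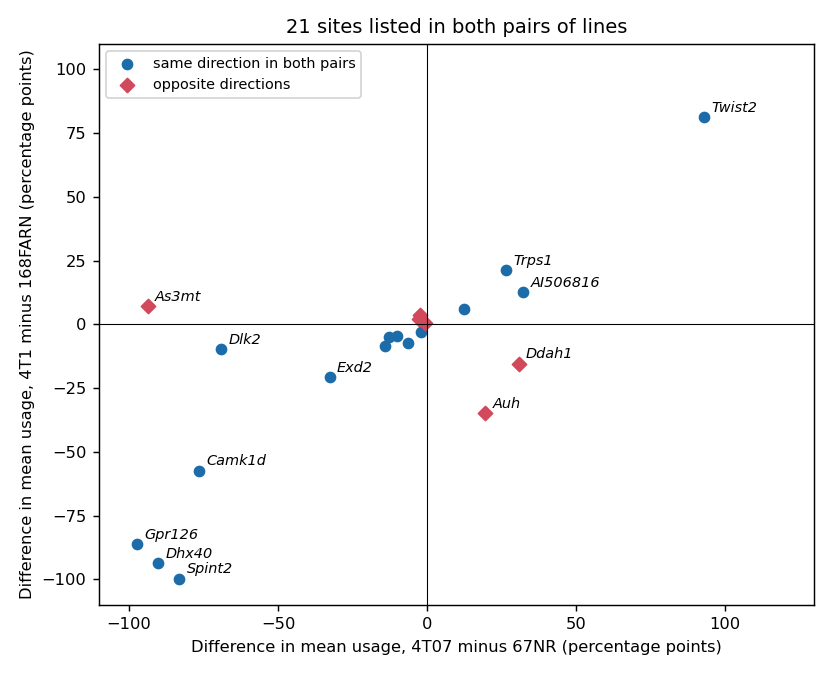
Difference in mean usage in percentage points for the 21 sites listed in both pairs of lines, 4T07 minus 67NR (horizontal) and 4T1 minus 168FARN (vertical). Points in the lower left and upper right quadrants moved the same way in both pairs, among them Spint2, Dhx40 and Twist2; the 6 red diamonds moved in opposite ways.

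Most of the sites were not followed in this way, since both tables list chosen sites. The peak lists gave a wider view: among 63 sites of lower usage whose peak all 4 lists of that pair hold, the site's reads were lower in 4T1 at 7 (11.1%) and higher at 1 (Mmd). Over all 17234 such merged peaks 9.61% were lower and 7.93% higher, so the share of lower calls is near that of all peaks. Rock2 was among the 7, with 41 and 49 reads in 4T1 and 211 and 380 in 168FARN (log2 fold change -2.48 ± 0.30, adjusted p = 0.00207), as was Tpm1, with 17 and 16 against 70 and 78. Of 17 sites of higher usage, 3 were lower in 4T1 (Auh, Vangl1 and Vmp1) and 14 did not pass.

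The other pairs share a line with this one and their values are given only beside it. Of the 214 sites, 73 (34.1%) are listed for 4T1 against 67NR, which shares the 67NR libraries, 62 as lower and 11 as higher in both. For 4T07 against 168FARN, which shares the 4T07 libraries, 80 (37.4%) are listed, 63 as lower and 16 as higher in both. The 1 exception is Kcnk2, a potassium channel, at 66.5% ± 2.18 (SD, n = 2) in 4T07 and 93.7% ± 1.84 in 168FARN. The remaining 84 sites (39.3%), 69 lower and 15 higher, are listed for no other pair of lines.

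For 4T1 cells in which U1 was blocked by an antisense morpholino, the deposited table holds 1561 sites whose regions were set separately. Of the 214 sites here, 18 (8.41%) overlapped one of them in the same gene by at least 1 base, which is 1.15% of that table. Among the 14 with lower usage in 4T07, 7 were lower and 7 higher with the morpholino. Over the 1561 sites of that table, 193 (12.4%) were lower and 1368 (87.6%) higher. Among the 4 with higher usage, 3 were lower and 1, in Lmna, was higher. The Rock2 site was lower with the morpholino, at 3.84% ± 0.0571 (SD, n = 2) against 56.6% ± 21.7 in untreated 4T1 cells, and the Tpm1 site was higher, at 4.20% ± 0.368 against 0.946% ± 0.230.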

How the data were processed

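Per the file headers, each deposited comparison table holds, per intronic site, the authors' log2 fold change with its SE, a test score, a p-value with an adjusted p, and, per library, normalized signals of the site and the last exon. Tools named in the submitters' processing notes, without roles, are DESeq2 1.4.5, bedtools 2.17.0, SAMtools 1.1 and Bowtie2 2.2.5, with build mm9. The authors' peak lists hold a read count per peak. Per the labels' protocols, RNA was reverse transcribed with anchored oligo-dT; the handling of reads primed at genomic A-stretches and of strand was not stated there.

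This deposited signal is reads divided by a size factor: 100% of values came out whole within 0.1 read, and these reads were used. The log2 values of the deposited tables are signed 67NR minus 4T07 and were turned. The site alone, the last exon alone and their ratio were fitted with edgeR 4.0.16 (quasi-likelihood, the authors' size factors, a sum of at least 10 reads, Benjamini-Hochberg adjusted p under 0.05), and checked on simulated data. The design named a count test for read counts, and the recovered reads serve as such. Log2 ratios used for the site's part had 0.5 normalized reads added. Where a group held 0 reads, folds are lower bounds set at 3 reads over the group; with 1 to 3 reads, an exact 95% binomial interval is given.

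The peak lists held 2753926 and 3106253 reads for 4T07 and 3347776 and 1427728 for 67NR; the list of 67NR replicate 2 is not complete, so peaks of 4T07 against 67NR were tested on 9 chromosomes. A peak missing from a list need not have 0 reads, so only peaks listed in all 4 libraries of a pair were tested. No sequence is shown. Most genes were named by fixed rules (largest changes per class, gene lists, shared or repeated sites). Mlec, Lmna, Vmp1, Stag1, LOC100503676 and Ifnar2, among others, fall outside these rules and were named with their values known. The gene lists and members were chosen with earlier results of these data known. Some hits shared the start of a symbol with a list but not its subject, and these were taken out of that list after values were seen. Among them were Trp53 and Trps1 for receptors and channels and Hmga2 for metabolic enzymes. Trps1 and Hmga2 stay in the other lists that name them. Replicate numbers do not pair the libraries in the labels. Alternatives were DESeq2 1.42.0, TMM, no filter, a replicate block, other thresholds and pseudocounts, and leaving out each library.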

Additional observations from a re-analysis of the deposited data

Results flagged for a closer look

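The sites below moved in one direction in 4T07 against 67NR and in the other in 4T1 against 168FARN, with no overlap between the libraries of either pair. The difference between the pairs was not tested. In usage, As3mt was 7.05 points higher in 4T1 but had -93.8 points in 4T07, on 1 and 1 site reads in 4T1. Auh at its more used site had -34.8 points in 4T1 and 19.6 in 4T07, and Ddah1 had -15.4 and 30.8. Ptges3 was 0.430 points higher in 4T1 and had -0.831 in 4T07. Both St6galnac6 sites were higher in 4T1, by 2.13 and 3.78 points, and had -2.56 and -2.29 points in 4T07.

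In site reads taken from peaks that all 4 lists hold, Mmd had on average 215 more reads in 4T1 than in 168FARN, while its reads fell in 4T07. Vangl1 had 48.0 fewer site reads in 4T1 (-48.0 as a difference) and rose in 4T07, where its call was lost without replicate 1 of 4T07 or of 67NR and under DESeq2.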

How the results depend on the processing

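Of the counts and medians that answer the comparison, 92 of 101 values under an alternative stayed within 1.5 times the count or 1 SD of the median. A change by exactly 1.5 times counted as within. That SD came from 2 values, each from same-numbered libraries, which the labels do not pair. Counts of lower and higher usage could not move when a library was left out, since the lines do not overlap in any row. The values that moved further were the authors' list at an adjusted p of at most 0.01 (96 lower and 14 higher) and the median part of the site. That part was 0.841 for the lower and 0.715 for the higher sites with at least 10 reads in every library. It ranged over 0.770 to 0.846 (lower), 0.582 to 0.673 (higher) and 0.755 to 0.819 (all, 0.800 with every library) when a library was left out. Calls of the site relative to the last exon ranged over 146 to 170 lower and 34 to 36 higher without 1 library, of the site's reads over 126 to 144 and 18 to 24, and of the last exon's over 26 to 42 and 62 to 92. DESeq2 called 124 and 20 sites and 34 and 72 last exons.

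The replicate block gave 146 lower and 25 higher sites, and 37 lower and 86 higher last exons. Same-numbered libraries did not deviate together (correlation 0.0291 over 266 features). The spread among listed rows (common dispersion 0.0144 for sites) was smaller than among the merged peaks (0.0382). With the latter, chosen after seeing the data, 155 sites were lower and 24 higher, and 28 last exons lower and 68 higher. The last-exon call of Sec23b was among those lost. TMM over the merged peaks gave 155 and 29 sites and 34 and 98 last exons. Sites with few reads limit the rest: the median site had 42.0 reads over 4 libraries.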
